A study of Drosophila melanogaster with 6 samples.

Results

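The 9 genes described here carry the insulin and TOR signal inside the cell, and they were taken by FlyBase symbol from a table of 17807 genes measured by RNA sequencing in progenitor cells of the adult *Drosophila melanogaster* midgut. They are InR, chico, Akt, foxo, Tsc1, Rheb, Tor, S6k and Thor. All 9 had a row, and all 9 passed the filter on low values that left 8124 genes for testing. Tor is listed under its synonym mTor. The tested libraries came from flies with a temperature-sensitive esg driver (esgts), UAS-GFP and UAS H1 RNAi 1, a transgene that targets the linker histone H1. The control libraries came from flies with esgts and UAS-GFP alone. Each group has 3 libraries, lettered A, B and C, made from GFP-positive intestinal stem cells (ISC) and enteroblasts (EB) sorted from 70 pooled guts per replicate. Induction is given as 4 days at 29 °C in the sample descriptions, while the growth protocol speaks of 1 day at 29 °C in 3-day-old flies held at 18 °C before, in a sentence about Dam expression. All 23 annotated H1 gene copies are listed at 0 in all 6 libraries, so the knockdown could not be checked in these data. The control carries no RNAi transgene of its own, and the knockdown rests on 1 construct. Whether replicates came from separate crosses is not given, so p-values measure only the spread between these libraries, which may be technical.

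In this pathway an insulin-like peptide binds the receptor InR, the adaptor chico passes the signal to phosphoinositide 3-kinase (PI3K), and the kinase Akt is activated and keeps the transcription factor foxo out of the nucleus. The Tsc1–gig complex holds back the small GTPase Rheb, which switches on the kinase Tor. Tor in turn phosphorylates S6k and Thor, the fly eIF4E-binding protein, and so raises translation. In the fly midgut, feeding and insulin signalling drive stem cell division, and the TSC complex keeps stem cells from overgrowing.

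Levels are in TPM, a transcript abundance corrected for gene length and set to the same total in every library. They can be compared between genes, but the sequencing depth is unknown. Of 12 listed progenitor markers 11 were measured, with a summed level of 2331 to 2537 TPM in H1 RNAi and 2199 to 2582 TPM in control. The marker esg itself is not analysed here. Most of the progenitor sum came from E(spl)mbeta-HLH (926 TPM in H1 RNAi and 964 TPM in control on average), Sox100B (645 TPM and 670 TPM) and Sox21a (315 TPM and 284 TPM). The stem cell marker Dl was at 1.66 to 8.76 TPM over all libraries. Of the progenitor markers measured, only mira had separate groups. It was at 202, 131 and 169 TPM in H1 RNAi and 125, 92.9 and 106 TPM in control. Of 12 visceral muscle markers 6, Mhc among them, and of 8 hemocyte markers 5, Hml among them, were below 1 TPM in every library. The muscle sums were 134 to 157 TPM in H1 RNAi and 148 to 153 TPM in control. Tm1 made most of them, with 97.0 to 124 TPM in H1 RNAi and 111 to 120 TPM in control, and Mef2 and how most of the rest. The hemocyte sums were 7.07 to 10.6 TPM in H1 RNAi and 1.29 to 3.79 TPM in control. The hemocyte difference was that of Col4a1 (4.38 TPM in H1 RNAi and 0.26 TPM in control on average) and vkg (2.93 TPM in H1 RNAi and 0.15 TPM in control), while srp averaged 1.36 TPM in H1 RNAi and 1.59 TPM in control. The 6 tracheal markers summed to 89.0 to 118 TPM in H1 RNAi and 31.5 to 38.8 TPM in control, and dysf alone made that difference, with 56.0 to 78.4 TPM in H1 RNAi and at most 0.02 TPM in control. The tracheal receptor gene btl averaged 13.2 TPM in H1 RNAi and 14.7 TPM in control, and trh and verm were below 1 TPM throughout. The 14 enteroendocrine markers summed to 1107 to 1630 TPM in H1 RNAi, against 2450 to 3262 TPM in control. In each control library this sum exceeded the progenitor sum. NPF made most of it (1139 TPM in H1 RNAi and 2309 TPM in control on average). Tk, pros, 7B2, amon, Rab3 and tap were also lower in H1 RNAi. Mip (11.1 TPM in H1 RNAi and 4.29 TPM in control) and CCHa2 (3.28 TPM and 1.09 TPM) were higher. AstA, AstC, Dh31, Orcokinin and CCHa1 overlapped between groups. The part of these other cell types in the differences given here was not tested. The 12 enterocyte markers summed to 715, 1774 and 1126 TPM in H1 RNAi A, B and C. In control A, B and C they summed to 453, 1448 and 800 TPM. Only pdm2 of these was below 1 TPM throughout, and it was lower in H1 RNAi. The lipase gene mag was higher, at 40.4, 9.70 and 31.2 TPM in H1 RNAi and 3.20, 3.55 and 6.14 TPM in control. All other enterocyte markers overlapped between groups. Control B stood apart by its yolk protein genes Yp1, Yp2 and Yp3, 85.5 TPM together against at most 1.90 TPM in any other library. In bulk RNA, fewer cells of a type and less RNA per cell cannot be told apart. Of all genes tested, 230 (2.83%) passed an adjusted p of 0.05 in limma, 185 higher (2.28%) and 45 lower (0.554%) in H1 RNAi. The median log2 fold change of all genes tested was 0.14 as deposited and 0.02 after TMM scaling, which sets libraries level by a trimmed mean of log ratios. Higher genes made up 80.4% of the calls as deposited. After TMM scaling they made up 64.7%, and after quantile normalization 56.8%.

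None of the 9 insulin and TOR genes passed the threshold in either direction, where 2.83% of all genes did. The largest differences were those of Tsc1, Thor and Rheb, whose H1 RNAi means were 1.53, 1.32 and 1.32 times the control means, and of foxo, at 0.812 times. InR, chico, Akt, Tor and S6k had log2 fold changes between -0.08 and 0.17. At an unadjusted p under 0.05 there were 3 of 9 (Tsc1, Rheb and Thor), and among all genes tested 23.8%. Groups were fully separate for Tsc1 and Rheb (higher) and foxo (lower). That is 33.3% of the 9 genes, near the 30.8% of all genes tested, of which 24.3% were higher and 6.45% lower. The median log2 fold change of the 9 genes was 0.08 as deposited, against 0.14 for all genes tested, and -0.04 with TMM scaling, against 0.02. None of the 15 alternatives gave a call for any of the 9, including the fit without control B.

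**Figure D1:**
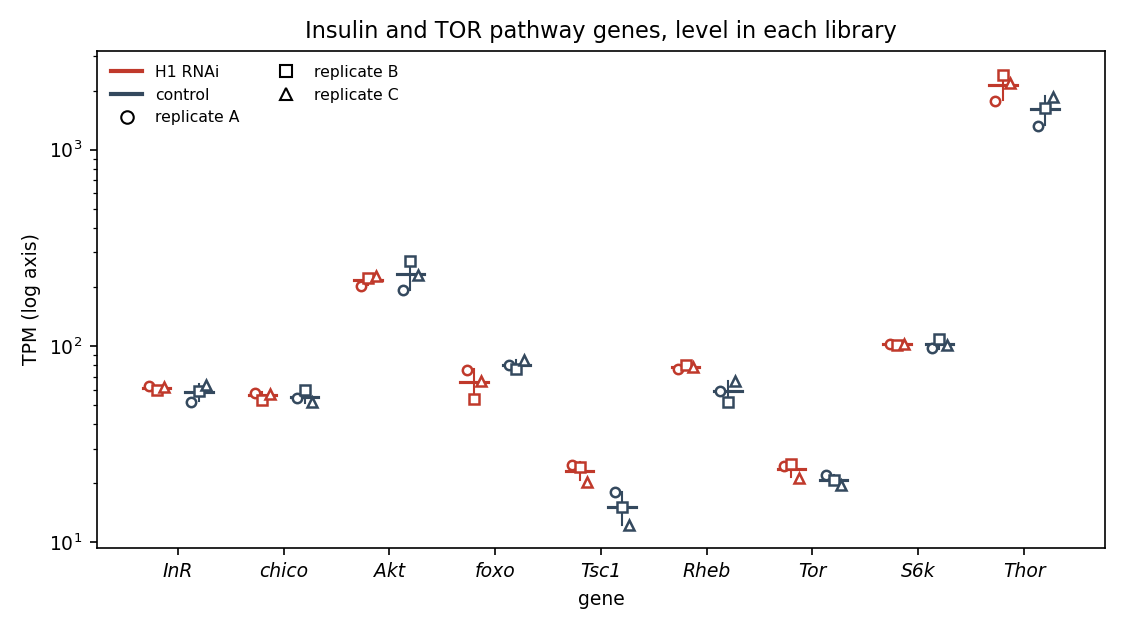
TPM of the 9 insulin and TOR pathway genes (log axis) in the 3 H1 RNAi and 3 control libraries. Symbols are single libraries, horizontal lines are group means and vertical lines are ± 1 SD. Thor lies between 1319 and 2409 TPM, Tor between 19.7 and 25.1 TPM and Tsc1 between 12.2 and 24.9 TPM.

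Thor was by far the highest of the 9, ranking between 95 and 117 among the 17807 genes in each library, and made up 0.132% to 0.241% of a library's TPM. In H1 RNAi the order of mean TPM was Thor, Akt, S6k, Rheb, foxo, InR, chico, Tor and Tsc1. In control it was Thor, Akt, S6k, foxo, Rheb, InR, chico, Tor and Tsc1. In H1 RNAi the ranges of foxo and InR and those of Tor and Tsc1 overlapped. In control those of Rheb and InR and those of InR and chico overlapped. All other neighbours in these orders had separate ranges. Rheb and foxo thus changed places: Rheb was above foxo in each H1 RNAi library, and foxo was above Rheb in each control library. In H1 RNAi A they were nearly equal, at 76.2 TPM for Rheb and 75.7 TPM for foxo. Neither gene passed the threshold, and the change of order was not tested. By mean over the 6 libraries, Thor stood at the 98.7th percentile of tested genes, Akt at the 94.4th, Tor at the 51.1st and Tsc1 at the 47.3rd.

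The receptor gene InR (FBgn0283499, 3R, 21570248 to 21619321 on the minus strand, dm6) was at 62.3, 59.9 and 62.2 TPM in H1 RNAi and 52.1, 58.8 and 63.6 TPM in control. The H1 RNAi values lie inside the range of the control values. Its log2 fold change was 0.08 ± 0.11 (SE, adjusted p = 0.686, limma), with a 95% interval, not adjusted for the number of genes, from -0.17 to 0.34. These intervals are limma's and apply to single genes. With TMM scaling the InR estimate was -0.04.

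The adaptor gene chico (FBgn0024248, 2L, 10242512 to 10247078, minus strand), the fly insulin receptor substrate, was at 57.9, 53.1 and 57.4 TPM in H1 RNAi and 54.3, 59.8 and 51.8 TPM in control. The H1 RNAi values again lie within the control range. For chico the log2 fold change was 0.02 ± 0.10 (SE, adjusted p = 0.918, limma), with an interval from -0.22 to 0.27. It is the only one of the 9 genes whose exons overlap those of another gene. The antisense gene asRNA:CR44995 covers 380 bp of them and was at 0.48 TPM or less in every library.

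Akt (FBgn0010379, 3R, 16099228 to 16105670, plus strand), the kinase between PI3K and foxo, was at 203, 222 and 227 TPM in H1 RNAi and 194, 271 and 232 TPM in control. The highest and the lowest of the 6 values are both control libraries, so the groups overlap fully. For Akt the log2 fold change was -0.08 ± 0.15 (SE, adjusted p = 0.775, limma). It was 0.035 without control B, which held the highest value. The 95% interval ran from -0.43 to 0.26.

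The transcription factor gene foxo (FBgn0038197, 3R, 14056945 to 14087978, plus strand), whose protein Akt inactivates, was at 75.7, 53.7 and 66.6 TPM in H1 RNAi and 79.9, 76.4 and 85.0 TPM in control. All 3 H1 RNAi values lie below all 3 control values, by a margin of less than 1 TPM between H1 RNAi A and control B. The mean was 65.3 ± 11.0 TPM in H1 RNAi and 80.4 ± 4.33 TPM in control (SD, n = 3 each). On the log2 scale the foxo difference was -0.31 ± 0.14 (SE, adjusted p = 0.247, limma), -0.43 with TMM scaling and -0.18 without H1 RNAi B, the library with the lowest value. Its interval, from -0.65 to 0.03, includes 0.

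**Figure D2:**
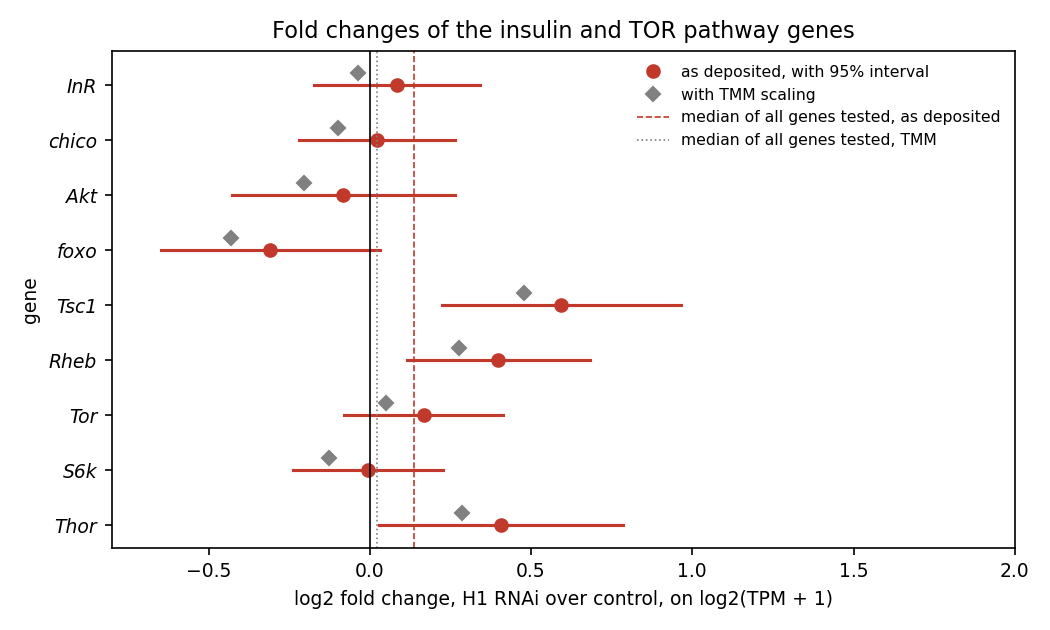
Log2 fold change of each gene, H1 RNAi over control, as deposited (circles, with 95% intervals from limma) and with TMM scaling (diamonds), on log2(TPM + 1). Vertical lines mark 0 and the median of all 8124 genes tested, 0.14 as deposited (dashed) and 0.02 with TMM scaling (dotted). The intervals of Tsc1, Rheb and Thor lie above 0, and none of the adjusted p-values passed.

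Tsc1 (FBgn0026317, 3R, 24130307 to 24134654, plus strand), the stabilizing subunit of the complex that inactivates Rheb, was at 24.9, 24.3 and 20.4 TPM in H1 RNAi and 18.0, 15.2 and 12.2 TPM in control. Every H1 RNAi library was above every control library. The means were 23.2 ± 2.46 TPM in H1 RNAi and 15.1 ± 2.89 TPM in control (SD, n = 3 each). On the log2 scale Tsc1 differed by 0.59 ± 0.16 (SE, adjusted p = 0.0887, limma), larger than that of 91.6% of all genes tested but short of the threshold. The 95% interval ran from 0.22 to 0.96, a fold of 1.17 to 1.95. The estimate was 0.48 after TMM scaling and 0.38 after quantile normalization. Over all alternatives the adjusted p of Tsc1 lay between 0.06 and 0.301.

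Rheb (FBgn0041191, 3R, 5568921 to 5570491, plus strand), the GTPase that activates Tor, was at 76.2, 80.1 and 77.9 TPM in H1 RNAi and 59.3, 51.8 and 66.7 TPM in control. The H1 RNAi libraries lie close together and all above the control libraries. For Rheb the estimate was 0.40 ± 0.12 on the log2 scale (SE, adjusted p = 0.112, limma), and 0.28 with TMM scaling. Its interval ran from 0.12 to 0.68. Tsc1 and Rheb encode proteins of opposite action on Tor, and both had positive estimates.

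The kinase gene Tor (FBgn0021796, 2L, 13004480 to 13013197, plus strand) was at 24.4, 25.1 and 21.2 TPM in H1 RNAi and 22.0, 20.9 and 19.7 TPM in control. The groups overlap through H1 RNAi C and control A. For Tor the estimate was 0.17 ± 0.10 on the log2 scale (SE, adjusted p = 0.372, limma), close to the median of all genes tested, and -0.04 with quantile normalization.

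S6k (FBgn0283472, 3L, 5797549 to 5810931, minus strand), the kinase that phosphorylates ribosomal protein S6, varied least of the 9 genes among the H1 RNAi libraries. It was at 102, 101 and 103 TPM in H1 RNAi and 97.5, 109 and 102 TPM in control. Its coefficient of variation was 0.699% in H1 RNAi and 5.58% in control. The medians over tested genes with a mean of at least 10 TPM were 9.67% and 12.2% in these groups. For S6k the log2 fold change was -0.01 ± 0.10 (SE, adjusted p = 0.978, limma), with an interval from -0.24 to 0.23. That interval holds levels between 0.848 and 1.17 times those of control.

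Thor (FBgn0261560, 2L, 3478434 to 3479612, plus strand), which binds eIF4E and blocks cap-dependent translation when Tor is inactive, was at 1773, 2409 and 2193 TPM in H1 RNAi and 1319, 1630 and 1865 TPM in control. H1 RNAi A lies below control C, so the groups overlap. The means were 2125 ± 323 TPM in H1 RNAi and 1605 ± 274 TPM in control (SD, n = 3 each). For Thor the estimate was 0.41 ± 0.16 on the log2 scale (SE, adjusted p = 0.183, limma), with an interval from 0.03 to 0.79. With TMM scaling the estimate was 0.29. The enterocyte marker sums given above have the same order as Thor in H1 RNAi, lowest in A and highest in B, and a different order in control, where the sum was highest in B and Thor in C. The part of enterocyte RNA in the Thor values was not tested.

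**Figure D3:**
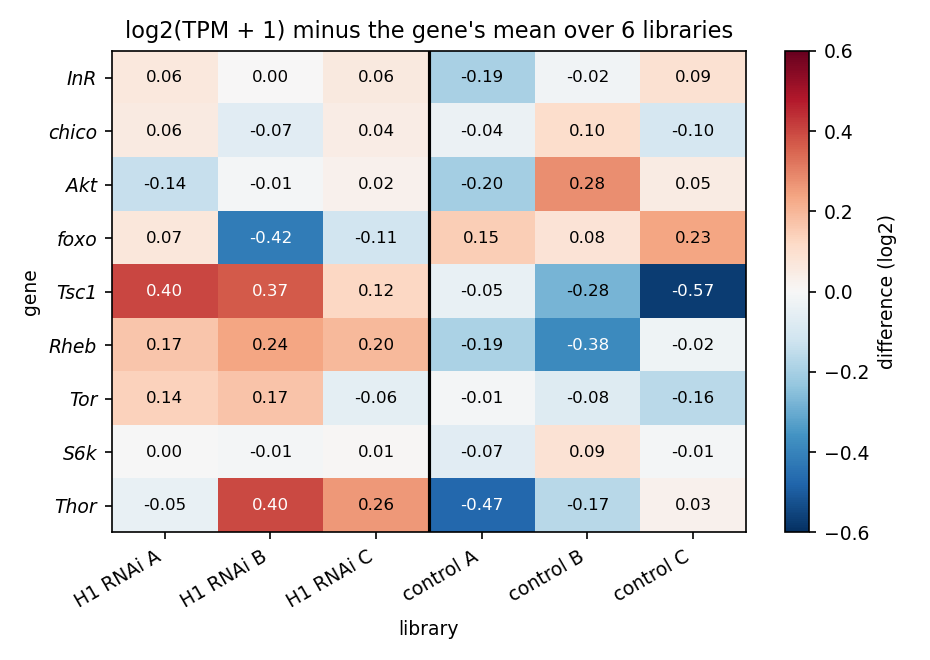
Difference of log2(TPM + 1) from each gene's mean over the 6 libraries (log2 units), for the 9 genes in 3 H1 RNAi and 3 control libraries. Tsc1 reaches 0.40 in H1 RNAi A and -0.57 in control C, foxo is lowest at -0.42 in H1 RNAi B, and S6k stays within 0.09 of its mean.

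Relative to each gene's own mean, the 9 genes did not move as a block. In H1 RNAi B, foxo was 0.42 below its mean and Thor 0.40 above it on the log2(TPM + 1) scale. In control A, Thor was 0.47 below its mean and Akt 0.20 below. In control C, Tsc1 was 0.57 below its mean while foxo was 0.23 above. Control B held the highest Akt value, 0.28 above the mean, and the lowest Rheb value, 0.38 below. Without control B the log2 fold change was 0.31 for Rheb and 0.60 for Tsc1.

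Within a library the ratio of 2 genes does not depend on the library total. Ratios were chosen after the values were seen and are given as a description, with no test. Tsc1 over gig, its partner in the TSC complex, was 0.823, 0.831 and 0.789 in H1 RNAi and 0.679, 0.613 and 0.601 in control, so the groups did not overlap. Rheb over Tsc1 was 3.06, 3.30 and 3.82 in H1 RNAi and 3.29, 3.41 and 5.45 in control, and the groups overlapped. Thor over the cap-binding factor gene eIF4E1 was 6.63, 10.4 and 9.68 in H1 RNAi and 4.86, 6.11 and 7.01 in control. By TPM, Thor transcripts outnumbered those of eIF4E1 in every library, and these groups overlapped.

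By the smallest root mean square difference of log2(TPM + 1), each gene centred on its mean over the 6 libraries, the genes most like InR were ClpX (0.0392), Daxx (0.0417) and amrt (0.0443). ClpX encodes a mitochondrial protease subunit and was at 54.9, 53.0 and 52.8 TPM in H1 RNAi and 46.6, 48.5 and 55.0 TPM in control. The genes most like Tsc1 were Ubc2 (0.0511), CG42232 (0.0530) and mEFTu2 (0.0534). Ubc2 encodes a ubiquitin-conjugating enzyme and was at 51.9, 52.0 and 46.4 TPM in H1 RNAi and 39.8, 32.0 and 28.4 TPM in control, with an adjusted p of 0.0779 (limma).

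The wider pathway was followed through 104 other genes on 8 lists, all of them matched, of which 85 were tested. Of these, 2 rose, 0 fell and 83 did not pass in limma, where 2.28% of all genes were higher and 0.554% lower. Of the 85, 21 had an unadjusted p under 0.05, 24.7% against 23.8% of all genes. The 2 that rose were rictor and Wdr59. The median log2 fold change was 0.13, against 0.14 for all genes tested.

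The gene rictor (X, 19252111 to 19261240, minus strand), the defining subunit of TOR complex 2, which phosphorylates Akt, rose to 56.4, 65.0 and 63.8 TPM in H1 RNAi, against 34.2, 33.5 and 33.2 TPM in control. Every H1 RNAi library was above every control library, and the control values lie within 1 TPM of each other. Its log2 fold change was 0.86 ± 0.10 (SE, adjusted p = 0.0120, limma), with an interval from 0.62 to 1.09. The call held with TMM scaling at 0.74 (adjusted p = 0.0305) and was lost without H1 RNAi B (0.0718), H1 RNAi C (0.0725) or control C (0.0662), where the estimate stayed between 0.82 and 0.85. No other gene overlaps its exons.

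The other TOR and TSC partners did not pass. The gene raptor, which defines TOR complex 1, was at 15.0 ± 1.02 TPM in H1 RNAi and 13.4 ± 1.27 TPM in control (SD, n = 3 each, log2 fold change 0.15, adjusted p = 0.461, limma). Its exons share 1669 bp with Mipp2 on the same strand. The shared subunit Lst8 had a log2 fold change of 0.20 and Sin1, of complex 2, of 0.17. The difference between rictor and these genes was not tested. Of the TSC complex, gig, the fly TSC2 with the GTPase-activating domain, was at 28.4 ± 2.33 TPM in H1 RNAi and 23.9 ± 3.17 TPM in control (adjusted p = 0.285). TBC1D7, the remaining subunit, was at 15.1 ± 2.09 TPM in H1 RNAi and 11.8 ± 0.450 TPM in control (adjusted p = 0.175), and 332 bp of its exons overlap mRpS24 on the other strand. Tctp, reported to act with Rheb in flies, was at 1990 ± 111 TPM in H1 RNAi and 2027 ± 105 TPM in control.

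**Figure D4:**
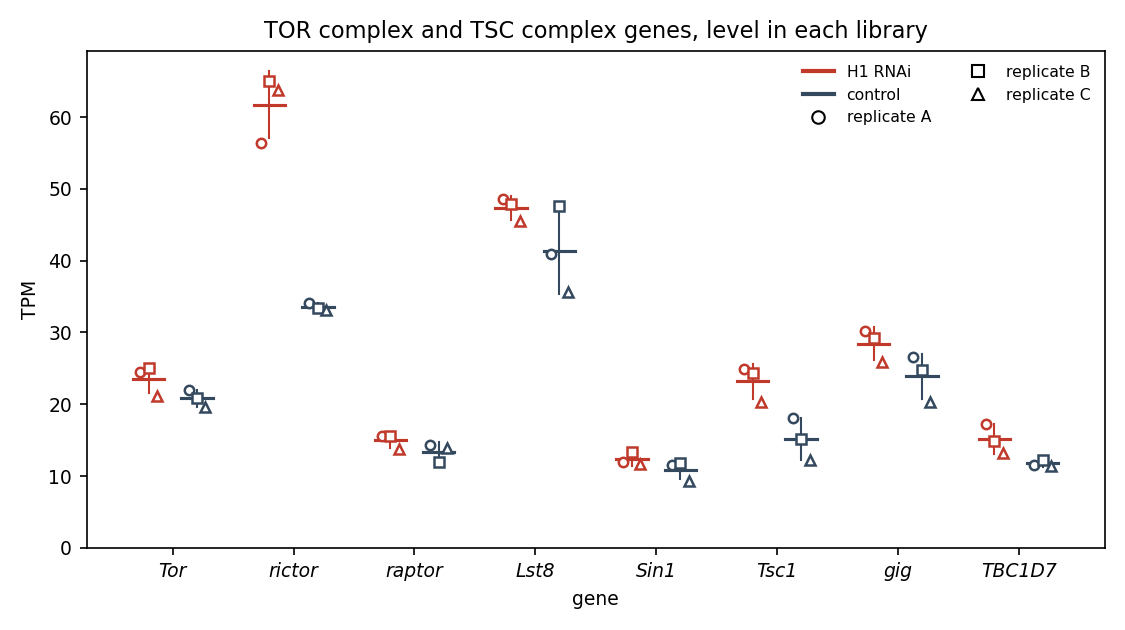
TPM of Tor and its partners rictor, raptor, Lst8 and Sin1, and of Tsc1 and its partners gig and TBC1D7, in 3 H1 RNAi and 3 control libraries. Symbols are libraries, horizontal lines group means and vertical lines ± 1 SD. For rictor the H1 RNAi libraries lie between 56.4 and 65.0 TPM and the control libraries between 33.2 and 34.2 TPM.

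Among genes that sense amino acids and energy at the lysosome, Wdr59 (2L, 11091444 to 11095096, plus strand), a GATOR2 subunit, rose to 16.4, 18.5 and 18.2 TPM in H1 RNAi, against 12.4, 11.9 and 11.3 TPM in control. The groups are well apart, and the log2 fold change was 0.54 ± 0.10 (SE, adjusted p = 0.0452, limma). That call was lost with TMM scaling (adjusted p = 0.0955), quantile normalization (0.149), no filter (0.0837), ordinary moderation (0.0513), the replicate block (0.0714) and on leaving out any single library (up to 0.211). The estimate was 0.43 after TMM scaling and 0.33 after quantile normalization, and ran from 0.51 to 0.59 with 1 library left out. Of the 19 tested genes on this list, 1 rose, 0 fell and 18 did not pass. At an unadjusted p under 0.05 (limma) there were 6 (31.6%), all higher, against 19.1% of all genes. Groups were separate for 9 (47.4%), all higher, against 24.3% of all genes. The list median was 0.21 as deposited, 0.09 after TMM scaling and 0.04 after quantile normalization. For all genes tested these medians were 0.14, 0.02 and -0.01. The amino acid transporter gene path was at 1504 ± 87.5 TPM in H1 RNAi and 965 ± 229 TPM in control (SD, n = 3 each, log2 fold change 0.66, adjusted p = 0.0796, limma). Its adjusted p was 0.0413 without control C. The GATOR1 genes Nprl3 and Nprl2 had log2 fold changes of 0.53 and 0.44 (adjusted p = 0.0824 and 0.1304, limma). Nprl2 overlaps 191 exonic bp of CG4872 on the other strand, which averaged 13.0 TPM in H1 RNAi and 3.94 TPM in control. Whether counting used strand is not given, so the Nprl2 values are uncertain.

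Insulin-like peptide genes were listed at low values. Of 11 ligand and binding-protein genes 9 were not tested, and Ilp8 had the highest value among these, 1.25 TPM. Ilp4, Ilp5 and Sdr were listed at 0 in all 6 libraries. Lamtor2, a lysosomal scaffold gene in general use, and the H1 copies are listed at 0 too, so a 0 in this table may be a gene that was not counted. Lamtor2 shares all 2533 bp of its exons with CG30120 on the same strand, while Ilp4, Ilp5 and Sdr have no exonic overlap. Why a gene was at 0 was not tested. Ilp6 was at 3.13, 5.90 and 3.92 TPM in H1 RNAi and 3.11, 2.19 and 3.28 TPM in control (adjusted p = 0.316, limma). ImpL2, a secreted protein that binds insulin-like peptides, was at 73.4, 91.0 and 79.0 TPM in H1 RNAi and 85.1, 99.98 and 39.1 TPM in control, with control C lowest (adjusted p = 0.735, limma). CG46460 shares 1651 bp of its exons on the same strand, so the ImpL2 values are uncertain.

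Of 12 tested genes of the PI3K branch below the receptor, which includes modulators of Akt and its targets, 0 rose, 0 fell and 12 did not pass (limma). At an unadjusted p under 0.05 there was 1 (8.33%), against 23.8% of all genes. That was dock, an adaptor that binds InR, at 28.3, 23.4 and 23.2 TPM in H1 RNAi and 35.5, 33.2 and 34.1 TPM in control, with no overlap. Its log2 fold change was -0.45 ± 0.11 (SE, adjusted p = 0.0787, limma), and it passed as lower with TMM scaling (0.0435), quantile normalization (0.0393) and array weights (0.0403). The PI3K catalytic subunit gene Pi3K92E was at 52.4 ± 5.38 TPM in H1 RNAi and 52.5 ± 4.08 TPM in control. The kinase gene Pdk1 had a log2 fold change of 0.17 (limma, adjusted p = 0.498). PRAS40, an inhibitor in TOR complex 1, was at -0.28 (limma, adjusted p = 0.423), and the estimate was -0.08 when H1 RNAi B was left out and -0.45 when A was.

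Of 16 tested genes of cap-dependent initiation and TOR output, 0 rose, 0 fell and 16 did not pass, with 1 (6.25%) at an unadjusted p under 0.05 against 23.8% of all genes (limma). The list median was -0.03, against 0.14 for all genes tested. The elongation factor gene eEF2 was at 4575 ± 114 TPM in H1 RNAi and 5000.0 ± 66.6 TPM in control (SD, n = 3 each, log2 fold change -0.13, adjusted p = 0.197, limma). RpS6, the ribosomal protein that S6k phosphorylates, was at 6110 ± 198 TPM in H1 RNAi and 6295 ± 374 TPM in control. The growth regulator Myc was at 82.5 ± 11.3 TPM in H1 RNAi and 103 ± 20.2 TPM in control (adjusted p = 0.333, limma). The eIF4E kinase gene Lk6 stood at 0.23 on the log2 scale (limma, adjusted p = 0.285).

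Genes known to be induced by foxo gave no call. Leaving out InR and Thor, 7 of 9 were tested, and 0 rose and 0 fell in limma. At an unadjusted p under 0.05 there was 1 (14.3%), against 23.8% of all genes. Estimates were positive for 3 and negative for 4 as deposited, with a median of -0.14 against 0.14 for all genes tested. After TMM scaling 2 were positive and 5 negative, with a median of -0.265 against 0.02. With InR and Thor included, 5 were positive and 4 negative as deposited, with a median of 0.04. After TMM scaling that fuller list had 3 positive and 6 negative, with a median of -0.08. NLaz, a lipocalin, was at 13.6 ± 2.62 TPM in H1 RNAi and 20.4 ± 5.13 TPM in control (SD, n = 3 each, log2 fold change -0.54, adjusted p = 0.194, limma). The lipase genes Lip4 and bmm had log2 fold changes of -0.40 and -0.36. With 1 library left out, Lip4 ran from -0.58 (H1 RNAi B left out) to -0.17 (H1 RNAi A left out). Likewise bmm ran from -0.54 (H1 RNAi A left out) to -0.02 (H1 RNAi B left out), and it was at 57.5 TPM in H1 RNAi B and 105 TPM or more elsewhere.

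The AMPK list covers the kinase that restrains Tor when energy is short. Of its 8 tested genes 0 rose and 0 fell in limma, with 2 of 8 at an unadjusted p under 0.05, against 23.8% of all genes. The list median was 0.21 as deposited, 0.09 after TMM scaling and 0.04 after quantile normalization, against 0.14, 0.02 and -0.01 for all genes tested. Lkb1, the upstream kinase, was at 21.5 ± 1.09 TPM in H1 RNAi and 15.4 ± 1.204 TPM in control (SD, n = 3 each, log2 fold change 0.46, adjusted p = 0.0646, limma). CG9588 covers 133 bp of the Lkb1 exons on the other strand. It averaged 23.3 TPM in H1 RNAi and 22.8 TPM in control. AMPKalpha, the catalytic subunit, was at 98.6 ± 2.06 TPM in H1 RNAi and 75.7 ± 8.26 TPM in control (log2 fold change 0.38, adjusted p = 0.112, limma). The beta subunit gene alc had a log2 fold change of 0.30.

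Autophagy genes, whose products Tor holds in check, gave 0 calls among 16 tested in limma, while 8 (50.0%) had an unadjusted p under 0.05, all of them higher in H1 RNAi. Among all genes tested 19.1% were higher at that level. The list median was 0.28 as deposited, 0.16 after TMM scaling and 0.09 after quantile normalization, against 0.14, 0.02 and -0.01 for all genes tested. Atg14, of the Vps34 lipid kinase complex, was at 29.6, 30.2 and 31.4 TPM in H1 RNAi and 21.2, 23.4 and 19.3 TPM in control, without overlap, and yem covers 61 bp of its exons on the other strand. Its log2 fold change was 0.50 ± 0.10 (SE, adjusted p = 0.0556, limma), and its adjusted p was 0.0338 without control B and 0.0287 with array weights. Atg5 and Atg7, of the conjugation machinery, had log2 fold changes of 0.44 and 0.43 (adjusted p = 0.117 and 0.121, limma). Atg1, the kinase that Tor inhibits, was at 59.2 ± 5.97 TPM in H1 RNAi and 49.1 ± 12.7 TPM in control. The cargo receptor ref(2)P was at 417 ± 47.6 TPM in H1 RNAi and 403 ± 159 TPM in control. CG10337 covers 173 bp of the ref(2)P exons on the other strand. It averaged 87.2 TPM in H1 RNAi and 51.8 TPM in control.

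**Figure D5:**
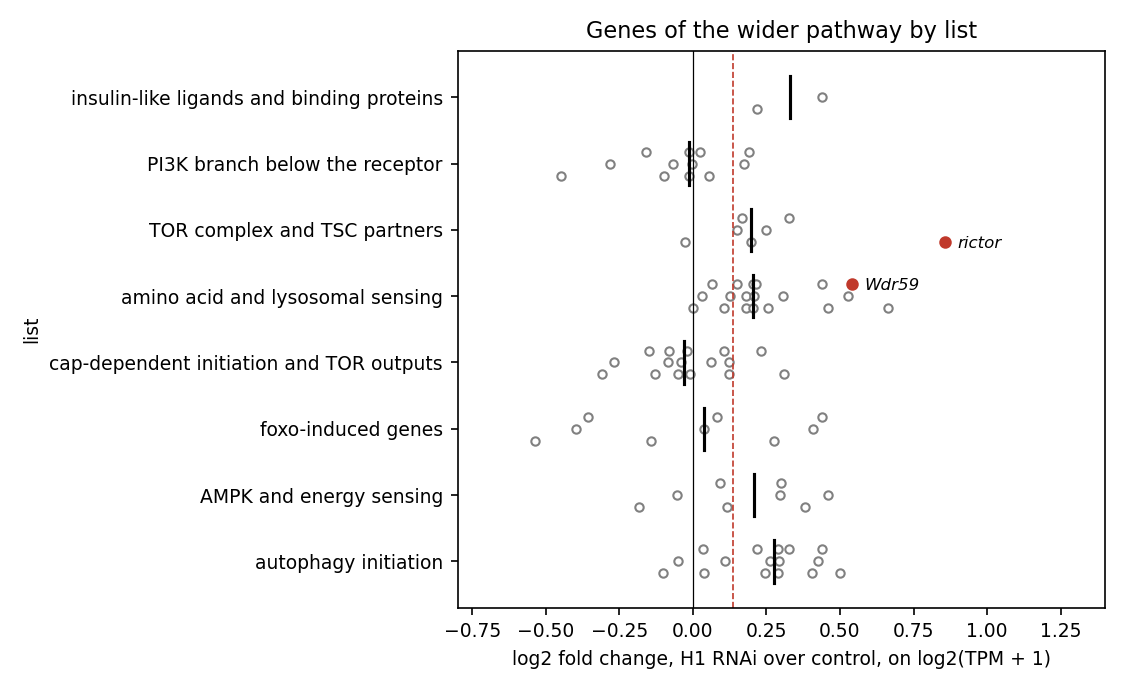
Log2 fold change, H1 RNAi over control, on log2(TPM + 1), for each tested gene of 8 pathway lists, where the foxo list includes InR and Thor. Filled points passed an adjusted p of 0.05, black bars are list medians and the dashed line is the median of all genes tested, 0.14. The genes rictor and Wdr59 are the filled points, at 0.86 and 0.54.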

How the data were processed

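The authors deposited 1 table of TPM values with 2 decimals, 1 column for each of the 6 libraries. Per the submitters' processing notes, reads were converted with bcl2fastq and placed on the dm6 build. Which aligner, counter, annotation and strand setting were used is not given. Libraries were made with Illumina's stranded mRNA kit, per the labels. TPM keeps no depth, so counting error is unknown.

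Symbols came from a table of gene names, and 7 list names were matched through RefSeq synonyms. Coordinates are 1-based, from Ensembl's BDGP6.54 annotation in dm6 coordinates. The fit took genes that reached 1 TPM or more in 3 or more libraries. log2(TPM + 1) was fitted with limma 3.58.1 in R 4.3.3 (mean trend, robust moderation), and p-values were adjusted over all 8124 genes by Benjamini and Hochberg at 0.05. This scale understates changes of low genes. TMM factors were computed in R (trims of 0.3 and 0.05). The fit was tested on simulated data with independent noise. The changes planted there were larger than the estimates of the 9 members, so that run does not bear on them. An exact permutation test of 3 against 3 cannot go below 0.1 and was not used. Alternatives were 2 pseudocounts (0.1 and 5), no filter, a filter at 5 TPM, both scalings, ordinary moderation, array weights, the replicate block and leaving out each library. The members and lists were chosen with earlier results of these data known. Named genes were the 9 members, up to 3 per list with the smallest adjusted p, every other pathway gene past the threshold and the 3 nearest profiles of InR and of Tsc1. Further genes were named after their values were seen.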

Additional observations from a re-analysis of the deposited data

How the results depend on the processing

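The 9 insulin and TOR genes gave 0 calls under each of the 15 alternatives. Estimates near 0 changed sign: with TMM scaling InR was at -0.038 and chico at -0.098, with quantile normalization InR at -0.021, chico at -0.082 and Tor at -0.036, and with array weights S6k at 0.010. The median of the 9 was -0.038 with TMM scaling and -0.036 with quantile normalization. Leaving out 1 library at a time gave a median from 0.010 to 0.13 and estimates from -0.023 to 0.080 for chico, -0.21 to 0.035 for Akt, -0.042 to 0.036 for S6k and -0.19 to 0.48 for ImpL2. Signs turned without H1 RNAi A (-0.0001) or control C (-0.023) for chico, without control B for Akt (0.035) and S6k (0.036), and without control C for ImpL2 (-0.19).

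Genes called higher numbered 75 with no filter, 88 with TMM scaling, 83 with quantile normalization, 446 with array weights, 107 with the replicate block and 24 to 389 with 1 library left out. Genes called lower numbered 15 with no filter, 101 with array weights and 5 to 61 with 1 library left out. Both ranges run from the set without H1 RNAi B to the set without control B. Of the other pathway genes, 1 was called higher with no filter, TMM scaling, quantile normalization, ordinary moderation or the replicate block, 4 with array weights and 0 to 2 with 1 library left out. As lower, 1 (dock) was called with TMM scaling, quantile normalization or array weights. The cause of these shifts was not tested.

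Replicate letters are shared between groups, but nothing in the labels ties them. Deviations of same-lettered libraries from their group means had r across genes of 0.40 for A, 0.14 for B and 0.09 for C, and genes are not independent replicates. H1 RNAi C was closer to control B (0.17) than to control C. The replicate block lowered the calls to 107 higher and 35 lower and ended the call of Wdr59. Depth is unknown, so counting error could not be set against these differences.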

Other observations

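Control B held the highest value of trbl, a Tribbles pseudokinase that in flies inhibits Akt. It was at 500 TPM in control B and 56.1 and 88.7 TPM in control A and C, against 91.4, 137 and 174 TPM in H1 RNAi A, B and C. The same library held the highest ref(2)P value, 586 TPM, against at most 451 TPM in any other. The maltase gene Mal-A1 was at 278 TPM in control B, against at most 68.2 TPM in any other library. These genes were chosen after their values were seen.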
